A study of Mus musculus with 4 samples.

Results

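Mouse chromosome 15 was examined for broad H2A.Z peaks and for peaks that join neighbouring sites, in chromatin immunoprecipitation and sequencing (ChIP-seq) of embryonic fibroblasts. All peaks on chromosome 15 were taken, 2094 of the 37667 in the Anp32e wild-type list and 2425 of the 41912 in the Anp32e knockout list. The chromosome was chosen by peak width and overlap in these same lists, in which it had shown many wide and joined knockout peaks. Its totals are therefore a description, and nothing was tested on them. The wild-type (+/+) and knockout (-/-) cultures came from crosses of heterozygous mice. Each was grown from a single embryo of embryonic day 10.5, with head and internal organs removed, on a C57BL/6 background and at passage 5 to 10. There was 1 H2A.Z library per genotype, so no value has a replicate and the genotypes were not tested against each other. The lists hold nothing that checks the knockout or the cell type.

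H2A.Z replaces the common histone H2A in nucleosomes at promoters and enhancers, and it is placed and exchanged by dedicated complexes and chaperones. ANP32E binds H2A.Z and has been described as a chaperone that evicts it. Peak width is the length of sequence over which enrichment was called without a break, so nearby sites become 1 peak when the sequence between them is also called. Mouse autosomes have their centromere at one end, and coordinates run from there towards the distal telomere.

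The lists give only the position of each peak on the mm9 build, so sequencing depth and peak height are unknown. Deeper or more enriched libraries usually give more and wider peaks, and depth could not be told apart from genotype. Intervals are 95% intervals for counting error over peaks, exact Clopper-Pearson for shares and binomial order-statistic for medians. They treat neighbouring peaks as independent and do not cover variation between cultures. Chromosome 15 was divided into 21 bins of 5 Mb and into 3 segments of 7 bins. The proximal segment runs to 35 Mb, the middle one from 35 to 70 Mb and the distal one from 70 to 105 Mb. The other 18 autosomes were divided into 3 equal segments in the same way and pooled. Chromosomes 1, 13 and 16 were also pooled by themselves, chosen by a pair width difference like that of chromosome 15.

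Wide and joined knockout peaks were concentrated in the distal segment, whereas the widening of matched pairs was spread over all 3 segments. In the distal segment 5.46% of knockout peaks were wider than 5 kb (79 of 1446, interval 4.35 to 6.76%). The share was 1.37% in the proximal segment (5 of 364, interval 0.447 to 3.18%) and 1.46% in the middle one (9 of 615, interval 0.671 to 2.76%). Matched pairs are those in which 1 knockout and 1 wild-type peak overlap only each other. They differed in width by medians of 332.5, 355.5 and 371 bp from the proximal to the distal segment. Joined peaks are left out of the pairs by this definition, so widening that reached a neighbouring site is not counted there. More was left out at the distal end, where 5.19% of knockout peaks were joined, against 1.84% in the rest of the chromosome.

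Of the chromosome 15 knockout peaks 93 were wider than 5 kb, or 3.84%, and over the whole knockout list the share was 1.13%. Of the wild-type peaks 30 were that wide, or 1.43%, against 0.56% of the whole wild-type list. The widths just above the limit were 5058, 5065 and 5075 bp and those just below it 4981, 4973 and 4958 bp, so no gap in the widths separates the classes. The distal segment held 84.9% of the wide knockout peaks (interval 76.0 to 91.5%) and 59.6% of all knockout peaks of the chromosome. In the wild type 1.88% of distal peaks were wide (24 of 1278, interval 1.21 to 2.78%), against 0.735% in the other 2 segments together (6 of 816, interval 0.270 to 1.59%). Both genotypes thus had the larger share at the distal end, although the 2 wild-type intervals overlapped. The knockout share was higher than the wild-type share there. It was also higher in the other 2 segments together, with 1.43% (interval 0.784 to 2.39%), where the intervals of the genotypes overlapped.

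**Figure D1:**
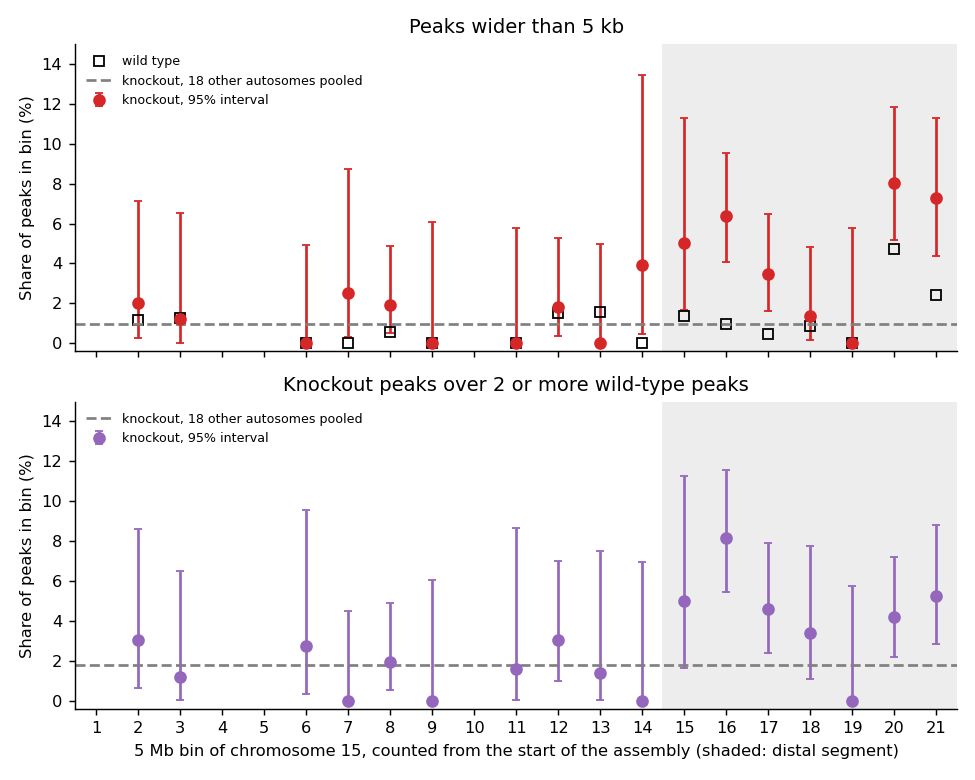
Share of peaks wider than 5 kb (top) and of knockout peaks overlapping 2 or more wild-type peaks (bottom) in each 5 Mb bin of chromosome 15 with at least 50 knockout peaks; bars are 95% intervals, squares the wild type, dashed lines the knockout value of the 18 other autosomes pooled. The highest wide shares, 8.04% and 7.29%, are in bins 20 and 21, and the highest share of joined peaks, 8.14%, is in bin 16.

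The distal excess of wide peaks was itself uneven. Bin 16 (75 to 80 Mb) held 22 wide knockout peaks among 344 and 3 wide wild-type peaks among 312. Bin 17 (80 to 85 Mb) held 9 among 260 knockout peaks and 1 among 217 wild-type peaks. In bin 20 (95 to 100 Mb) the numbers were 23 of 286 and 12 of 253, and in bin 21 (100 to 105 Mb) 18 of 247 and 6 of 246. These 4 bins were the ones with 200 or more wild-type peaks, and together 6.33% of their knockout peaks were wide (72 of 1137, interval 4.99 to 7.91%). The 3 distal bins with fewer wild-type peaks had a share of 2.27% (7 of 309, interval 0.916 to 4.61%). Among these, bin 15 (70 to 75 Mb) went against the order by number of peaks. With 74 wild-type peaks it had 5 wide peaks among 100 in the knockout (interval 1.64 to 11.3%), a share above that of dense bin 17 (3.46%, interval 1.59 to 6.47%), with overlapping intervals. Bin 18 (85 to 90 Mb) had 2 among 147. Bin 19 (90 to 95 Mb) held no wide peak among 62 knockout peaks. A limit of 3 counts would allow it a share of up to 4.84%, and its exact interval ends at 5.78%. Bins 16 and 17 and bins 20 and 21 thus held 72 of the 93 wide knockout peaks.

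At the scale of 1 Mb the wide knockout peaks came in groups. The window from 78 to 79 Mb held 10 of them among 84 knockout peaks, and 2 wide peaks among 73 in the wild type. The window from 98 to 99 Mb held 9 knockout and 7 wild-type wide peaks, and that from 101 to 102 Mb held 9 and 3. These windows were picked for their counts after the values were seen. Of the 8 autosomal windows with 5 or more wide knockout peaks, 6 lay on chromosome 15. The highest count on another autosome was 8, on chromosome 10 from 80 to 81 Mb.

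The shares of wide and of joined knockout peaks were also compared outside the distal segment. In the lists as deposited, their intervals on chromosome 15 overlapped those of the other autosomes. For wide peaks this did not hold after peaks within 500 bp were merged, when the share was 3.46% on chromosome 15 (interval 2.38 to 4.85%) and 1.99% on the others (interval 1.81 to 2.18%). Its proximal and middle segments together had 1.43% wide knockout peaks (14 of 979, interval 0.784 to 2.39%). The same segments of the other autosomes had 0.943% (223 of 23649, interval 0.824 to 1.07%). For the distal segments the shares were 5.46% on chromosome 15 and 0.988% on the others (149 of 15078, interval 0.837 to 1.16%). Chromosomes 1, 13 and 16 over their whole length had 0.988% wide knockout peaks (74 of 7490, interval 0.777 to 1.24%). Their wild-type share was 0.253% (12 of 4747, interval 0.131 to 0.441%), so wide peaks were more frequent in the knockout there too. Among the 54 segments of the other autosomes the highest wide share was 2.10%, in the middle of chromosome 8. The share of joined peaks in the distal segment of chromosome 15 was 5.19%, against at most 3.13% in those 54 segments.

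**Figure D2:**
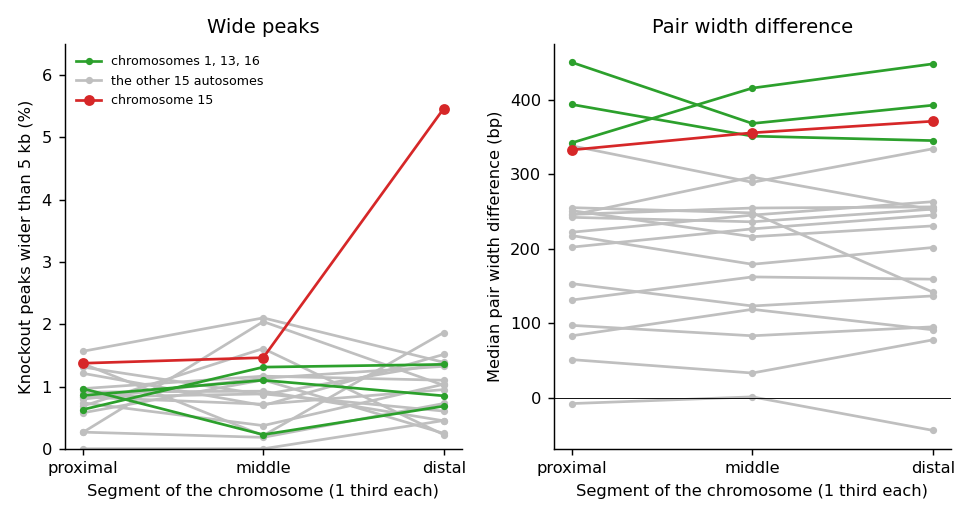
Share of knockout peaks wider than 5 kb (left) and median width difference of matched pairs (right) in the proximal, middle and distal segment of each autosome, 1 line per chromosome. Chromosome 15 leaves the others in wide peaks at the distal segment, with 5.46%. Its pair difference lies near those of chromosomes 1, 13 and 16, which were chosen for that likeness. Chromosome 5, drawn among the others, has medians of 338, 289 and 334 bp from the proximal to the distal segment.

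Bins of the other autosomes with as many wild-type peaks had a lower share of wide peaks. The 17 bins of other autosomes with 200 or more wild-type peaks had 1.48% wide knockout peaks (57 of 3859, interval 1.12 to 1.91%), and single bins ran from 0 to 4.48%. On chromosome 15 the 4 bins of that class ran from 3.46 to 8.04%. In the wild type the shares for this class were 2.14% on chromosome 15 (22 of 1028, interval 1.35 to 3.22%) and 0.774% elsewhere (32 of 4133, interval 0.530 to 1.09%). The median pair difference in these bins was 372 bp on chromosome 15 and 156 bp on the others. Of the other dense bins 4 lay on chromosome 11 and 3 each on chromosomes 2 and 4, whereas chromosomes 1, 13 and 16 had none. The 2 dense bins elsewhere with the largest pair differences were bin 28 of chromosome 5 (292.5 bp, interval 260 to 364 bp) and bin 16 of chromosome 10 (291 bp, interval 250 to 335 bp). These intervals overlapped that of bin 16 of chromosome 15 (320 bp, interval 276 to 407 bp). The wide shares were 1.04% in the bin of chromosome 5 (3 of 288, interval 0.215 to 3.01%), 2.48% in that of chromosome 10 (7 of 282, interval 1.00 to 5.05%) and 6.40% in that of chromosome 15 (interval 4.05 to 9.52%). The interval of chromosome 15 lay above that of chromosome 5 and overlapped that of chromosome 10. In bins with 20 to 99 wild-type peaks the wide knockout shares were 1.62% on chromosome 15 (12 of 741, interval 0.840 to 2.81%) and 0.777% on the others (143 of 18394, interval 0.656 to 0.915%).

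Joined peaks, each a knockout peak that overlapped 2 or more wild-type peaks by at least 1 bp, also numbered 93 on chromosome 15, or 3.84%. Over the whole knockout list the share was 1.92%. The equal counts are a coincidence, since 42 peaks belonged to both classes. The distal segment held 75 of the joined peaks, 80.6% (interval 71.1 to 88.1%). Their share was 5.19% of its knockout peaks (interval 4.10 to 6.46%), 1.65% of those in the proximal segment (6 of 364) and 1.95% in the middle one (12 of 615). The distal segments of the other autosomes had 1.84% (278 of 15078), and chromosomes 1, 13 and 16 over their whole length had 1.82% (136 of 7490). Outside the distal segment the values were 1.84% on chromosome 15 (interval 1.09 to 2.89%) and 1.79% on the others (interval 1.62 to 1.97%).

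The opposite case, a wild-type peak over 2 or more knockout peaks, was found 17 times among the 2094 wild-type peaks, or 0.812% (interval 0.474 to 1.30%). Its background over the whole wild-type list was 0.581%. It was not concentrated in the same way, with 0.861% in the distal segment and 0.735% in the rest.

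Most joined peaks linked a pair of sites. Of the 93, 88 overlapped exactly 2 wild-type peaks. The median joined peak on chromosome 15 was 4725 bp wide (interval 4409 to 5682 bp). Its wild-type partners summed to a median of 3874 bp, with 305 bp of sequence between them and a further 342 bp beyond their outer ends. The last value ran from -4591 to 4001 bp. It was negative where the partners together spanned more than the knockout peak, so not every joined peak covered its partners in full. On the other autosomes the median joined peak was 3673 bp wide, with partners of 3239 bp, 162 bp between them and 206 bp beyond. All 3 components were thus larger on chromosome 15 than on the pooled other autosomes, the summed wild-type partners by the most base pairs. On chromosomes 1, 13 and 16 the medians were 3160.5 bp for the partners, 310 bp between them and 451.5 bp beyond. Of these only the partner sum was smaller than on chromosome 15. Of the joined peaks 45.2% were wider than 5 kb on chromosome 15 (42 of 93, interval 34.8 to 55.8%), 33.1% on chromosomes 1, 13 and 16 (45 of 136, interval 25.3 to 41.7%) and 18.4% on the other 18 autosomes (129 of 701, interval 15.6 to 21.5%).

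The wide knockout peaks can be sorted by what the wild type had at the same place. On chromosome 15 none of the 93 lacked a wild-type partner. For 18 of them (19.4%) the single partner was itself wider than 5 kb. For 33 (35.5%, interval 25.8 to 46.1%) the single partner was at most 5 kb wide, so the limit was passed by widening of 1 site. The other 42 (45.2%, interval 34.8 to 55.8%) covered 2 or more wild-type peaks. On the other autosomes these classes made up 33.6, 31.5 and 34.7% of 372 wide peaks, 1 of which had no partner, and on chromosomes 1, 13 and 16 they made up 13.5, 25.7 and 60.8% of 74. Of the 30 wide wild-type peaks on chromosome 15, 26 lay under a knockout peak that was also wider than 5 kb (86.7%, interval 69.3 to 96.2%).

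Gaps between neighbouring wild-type peaks show how often near sites were joined, apart from how closely they lay. Of the 206 gaps of up to 1 kb on chromosome 15, 45.1% lay wholly inside a single knockout peak (interval 38.2 to 52.2%), and over both whole lists the share was 30.9%. It was 29.4% on the other autosomes (682 of 2316, interval 27.6 to 31.4%) and 50.0% on chromosomes 1, 13 and 16 (123 of 246, interval 43.6 to 56.4%). Within chromosome 15 the share was 47.8% in the distal segment (75 of 157, interval 39.7 to 55.9%) and 36.7% in the rest (18 of 49, interval 23.4 to 51.7%), with overlapping intervals. The interval of chromosome 15 lay above that of the pooled other autosomes and overlapped that of chromosomes 1, 13 and 16. Closed gaps count the joined peaks again, and the chromosome was chosen partly for these. Chromosomes 1, 13 and 16 were chosen for a like pair difference. The positions of these intervals are therefore a description and not a test.

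Gap length made the contrast with the other autosomes clearest between 500 bp and 1 kb. There 24.7% of gaps were closed on chromosome 15 (22 of 89, interval 16.2 to 35.0%), 8.32% on the other autosomes (80 of 962, interval 6.65 to 10.2%) and 27.3% on chromosomes 1, 13 and 16 (27 of 99). For gaps of up to 500 bp the shares were 60.7%, 44.5% and 65.3%. Of gaps between 1 and 2 kb, 7 of 132 were closed on chromosome 15, or 5.30% (interval 2.16 to 10.6%). The shares were 2.40% on the other autosomes (43 of 1795, interval 1.74 to 3.21%) and 10.7% on chromosomes 1, 13 and 16 (19 of 178, interval 6.55 to 16.2%). Within chromosome 15 the distal segment had 7 of 100 (interval 2.86 to 13.9%) and the rest 0 of 32 (interval up to 10.9%), so a difference between segments was not detectable.

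**Figure D3:**
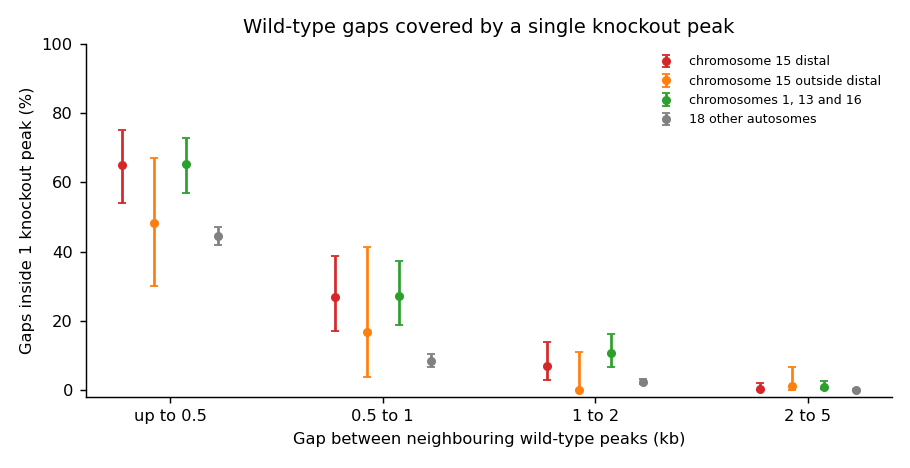
Share of gaps between neighbouring wild-type peaks that lie inside 1 knockout peak, by gap length; points are shares and bars 95% intervals, and the 18 other autosomes include chromosomes 1, 13 and 16. In the 0.5 to 1 kb class the distal segment of chromosome 15 has 26.8% and the other autosomes 8.32%.

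Short gaps were also more common at the distal end. Gaps of up to 1 kb made up 12.3% of all wild-type gaps in the distal segment of chromosome 15 (157 of 1278, interval 10.5 to 14.2%) and 6.01% in its other segments (49 of 815, interval 4.48 to 7.87%). The distal segments of the other autosomes had 6.82% (940 of 13788), and chromosomes 1, 13 and 16 over their whole length had 5.19% (246 of 4744). Wild-type peaks were also wider in the distal segment, with a median of 1853.5 bp (interval 1774 to 1930 bp), against 1455 bp in the rest of chromosome 15 (interval 1403 to 1519 bp) and 1643.5 bp in the distal segments of the other autosomes. The wild-type landscape of distal chromosome 15 thus already held wider and closer peaks. Over its whole length the chromosome had 20.9 wild-type peaks per Mb and a median gap of 10.1 kb, while the other autosomes ran from 8.68 to 25.6 peaks per Mb.

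The widening of matched pairs, which leave out joined peaks, had no such distal step. Chromosome 15 held 1560 pairs, of which 1344 were wider in the knockout, 86.2% (interval 84.3 to 87.8%). Over all pairs of both lists the share was 79.7%. The median pair differed by 363.5 bp, with an interval of 331 to 390 bp and quartiles of 120 and 712 bp, against 208 bp on the other autosomes (interval 204 to 212 bp) and 392 bp on chromosomes 1, 13 and 16 (interval 380 to 406 bp). It was 371 bp in the distal segment (interval 334 to 404 bp) and 349.5 bp in the rest (interval 299 to 396 bp), and these intervals overlapped. Extension over all pairs had medians of 150 bp at lower and 142 bp at higher coordinates. Both ends were not always extended in the same pair, and the knockout peak reached beyond both ends in 1056 of the 1560 pairs, 67.7% (interval 65.3 to 70.0%). That share was 58.9% on the other autosomes and 78.1% on chromosomes 1, 13 and 16.

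**Figure D4:**
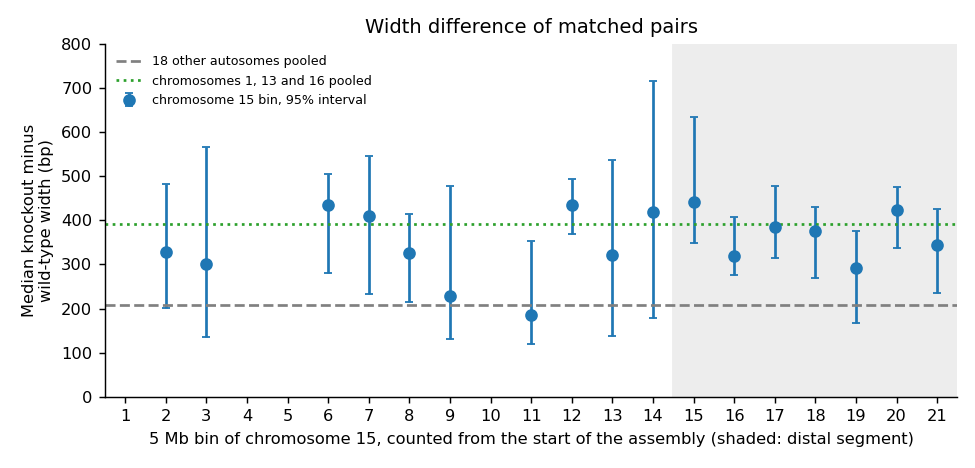
Median of knockout minus wild-type width over matched pairs in each 5 Mb bin of chromosome 15 with at least 20 pairs; bars are 95% intervals, lines the pooled medians of the 18 other autosomes (208 bp) and of chromosomes 1, 13 and 16 (392 bp). Of the 17 bins, 16 lie above the value of the other autosomes, on both sides of the border of the shaded distal segment.

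Of the 17 bins of chromosome 15 with at least 20 pairs, 16 had a median difference above 208 bp. For comparison, 55.1% of the 374 such bins on the other autosomes lay above that value. Those bins mix chromosomes that differ, since segment medians ran from -44 bp (distal chromosome 4) to 450 bp (proximal chromosome 16). Bins of the same chromosome are not independent, so the count on chromosome 15 was not tested against that share. The bins of chromosome 15 ran from 185 bp in bin 11 (50 to 55 Mb, 43 pairs, interval 120 to 354 bp) to 441 bp in bin 15 (70 to 75 Mb, 58 pairs). In 10 of the 17 the whole interval lay above 208 bp. Bin 12 (55 to 60 Mb), outside the distal segment, reached 435 bp, while bin 16, which held the most joined peaks, had 320 bp. The bin with most joined peaks was thus not the one with the largest pair difference. Joined peaks do not enter the pair differences, so these values describe different peaks.

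The upper tail of the pair differences was longer at the distal end than the medians show. The 90th percentile was 1418 bp in the distal segment and 1146 bp in the rest of chromosome 15. It was 794 bp on the other autosomes and 1197 bp on chromosomes 1, 13 and 16. The median of the distal segment was lower than that of chromosomes 1, 13 and 16 (371 and 392 bp), with overlapping intervals, and its 90th percentile was higher. In the distal segments of chromosomes 1, 13 and 16 the median was 404.5 bp (interval 383 to 424 bp) and the 90th percentile 1203 bp. The percentiles have no interval.

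Pairs were then compared at like width of the wild-type partner, a width that is itself part of the difference. For partners of 2 to 3 kb the median difference was 314 bp on chromosome 15 (485 pairs, interval 271 to 367 bp), 347 bp on chromosomes 1, 13 and 16 and 152 bp on the other autosomes (9036 pairs, interval 146 to 159 bp). For partners of 1 to 1.5 kb the values were 448, 455.5 and 292 bp. Chromosome 15 therefore lay above the pooled autosomes at both of these widths. For partners wider than 5 kb it did not, with 56 bp on chromosome 15 (21 pairs, interval -171 to 302 bp). The other autosomes had 83 bp in that class (147 pairs, interval 16 to 194 bp). Partners of 4 to 5 kb became wider than 5 kb in 16 of 39 pairs on chromosome 15, or 41.03% (interval 25.6 to 57.9%). The shares were 16.1% on chromosomes 1, 13 and 16 (5 of 31, interval 5.45 to 33.7%) and 15.9% on the other autosomes (63 of 395, interval 12.5 to 19.9%). In this class 11 of 28 pairs passed the limit in the distal segment and 5 of 11 in the rest.

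**Figure D5:**
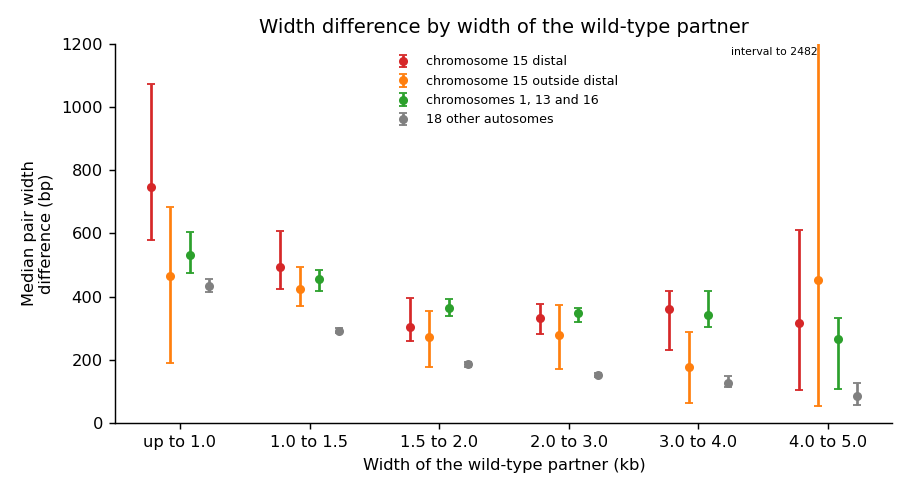
Median width difference of matched pairs by the width of the wild-type partner, with 95% intervals; the 18 other autosomes include chromosomes 1, 13 and 16. For partners of 2 to 3 kb the distal segment has 331 bp, the rest of chromosome 15 has 279 bp and the other autosomes 152 bp. Partners wider than 5 kb are not drawn.

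Peaks found in one genotype had a different distribution. On chromosome 15, 748 knockout peaks had no wild-type partner, 30.8% (interval 29.0 to 32.7%), with 28.1% over the whole list. The share was 27.5% in the distal segment (398 of 1446) and 35.8% in the rest (350 of 979, interval 32.7 to 38.8%). Among wild-type peaks 333 had no knockout partner, 15.9% (interval 14.4 to 17.5%), with 18.3% over the whole list. The distal share was 12.4% and that of the rest 21.4%. Within chromosome 15 both genotypes thus had a lower share of unpartnered peaks in the distal segment. Knockout shares on the other autosomes were 27.6% in the distal segments (interval 26.9 to 28.3%) and 28.3% in the rest (interval 27.7 to 28.8%). The distal knockout value of chromosome 15 was thus near that of the others, and the value of its rest lay above. Wild-type shares on the other autosomes were 19.4% in the distal segments and 18.1% in the rest.

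Peaks on chromosome 15 covered 4.04 Mb in the wild-type list and 5.80 Mb in the knockout list, a ratio of 1.44. The ratio was 1.26 on the other autosomes pooled and 1.85 on chromosomes 1, 13 and 16, and single chromosomes such as 5 and 10 had values near that of chromosome 15, 1.46 and 1.42. By segment the ratios were 1.49, 1.44 and 1.43 from proximal to distal, and those of peak number 1.19, 1.21 and 1.13. The relative gain in covered sequence was therefore no larger at the distal end. Of the knockout sequence outside any wild-type peak, 47.9% lay within shared peaks in the distal segment and 36.7% in the rest of the chromosome. The other autosomes pooled had 37.5%. The distal value was not particular to chromosome 15. Distal segments of chromosomes 4, 6, 11, 12 and 14 had 48.2 to 51.5%, and those of the remaining autosomes had less. For chromosomes 1, 13 and 16 pooled the distal value was 28.9%.

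The widest knockout peak of the chromosome, chr15:98812081-98825454, was 13374 bp wide and covered wild-type peaks of 5480 and 4272 bp. These lay 626 bp apart, and a further 2996 bp of the knockout peak lay beyond them. The next, chr15:38379207-38389146, lies in the middle segment and was 9940 bp wide. Its wild-type partners of 6045 and 3483 bp were 511 bp apart and together spanned 99 bp more than it did, so here closing of the gap made the difference in width.

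The joined peaks with the most wild-type partners lay in the distal segment, which also held 80.6% of all joined peaks. The knockout peak at chr15:103131945-103141875 was 9931 bp wide and covered 5 wild-type peaks of 3109, 1259, 1152, 1001 and 903 bp, with 1960 bp between them. A peak of 4725 bp at chr15:97982629-97987353 covered 4 wild-type peaks of 990, 964, 784 and 532 bp. Peaks over 3 wild-type peaks lay at chr15:78631859-78639433 (7575 bp), chr15:101852329-101859544 (7216 bp) and chr15:76290952-76297211 (6260 bp). All 5 of these lay in the distal segment. Of the 75 joined peaks there, 70 covered exactly 2 wild-type peaks (interval 85.1 to 97.8%). Outside it all 18 did (interval 81.5 to 100%), and these intervals overlapped. A knockout peak of 9898 bp at chr15:82167786-82177683 joined a pair of 5274 and 2517 bp across 1613 bp.

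The largest widening of a single site lay outside the distal segment. At chr15:5187094-5195732 the knockout peak was 8639 bp wide and its only partner 4217 bp, a difference of 4422 bp, of which 4342 bp lay at lower coordinates. The pair at chr15:58174434-58180498 had 6065 and 1656 bp, with 4191 bp of the extension at higher coordinates. At chr15:36427916-36434215 the widths were 6300 and 2242 bp. The other 2 of the 5 largest differences were distal, 3975 bp at chr15:97601551-97608152 and 3878 bp at chr15:99326654-99332806. In all 5 the extension was unequal on the sides of the wild-type peak.

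The other bins outside the distal segment with a wide knockout peak had their widest at chr15:11832679-11838524 (5846 bp, partner of 5068 bp), chr15:32170299-32176994 (6696 bp, partner of 4214 bp) and chr15:66867261-66873618 (6358 bp, partner of 4882 bp). In bin 12 it was chr15:57805759-57813326, with 7568 bp over partners of 5381 and 883 bp.

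The widest wild-type peaks did not widen in the same way. The 5 widest, all in the distal segment, each had a single knockout partner. At chr15:76496703-76503628 the widths were 6926 bp in the wild type and 6949 bp in the knockout, and at chr15:78276869-78283777 they were 6909 and 6770 bp. At chr15:97829786-97836607 the wild-type peak of 6822 bp had a partner of 5342 bp. The remaining pairs were 6649 and 6722 bp at chr15:101803181-101809829, and 6475 and 6304 bp at chr15:101195336-101201810. These pairs were chosen by their width in the wild type. The largest narrowing of a pair was 4810 to 2503 bp, a difference of -2307 bp, at chr15:102810785-102813287. The next 2 were -1480 bp, at the wild-type peak of 6822 bp named above, and -1465 bp at chr15:62160002-62161501.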

How the data were processed

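H2A.Z ChIP-seq libraries of 1 wild-type and 1 Anp32e knockout culture were analysed; the 2 input libraries were not analysed here. Sequencing gave single-end reads of 50 bases, per the labels' protocols. The authors deposited 1 list of peak positions per library, with 3 columns (chromosome, start, end) and no height, score or count. Both were saved from Galaxy, per the file headers. The submitters' processing notes name the build mm9 and, among the tools, the aligner Bowtie 0.12.8, the peak caller MACS 1.4.2, HOMER, and CASAVA 1.8.2. Settings, the peak threshold and whether inputs were used: not given in the sources used here.

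Positions were analysed with scipy 1.17.1, numpy 2.4.6 and pandas 2.3.3 under Python 3.11.15; figures were drawn in matplotlib 3.10.9. Starts were changed to count from 1. Peaks overlapped when they shared at least 1 bp, and were placed in bins and segments by their midpoints. Named regions were the 5 widest peaks of each list, the 5 joined peaks with most partners, the 5 largest and 3 smallest pair differences, the 3 peaks on each side of 5 kb, and the widest peak over 5 kb of each bin outside the distal segment. The chromosome, regions and settings were chosen with earlier results of these data known. The code was tested on simulated data. No gene or sequence is named, since the reference tables used are for GRCm38 and the peaks for mm9.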

Additional observations from a re-analysis of the deposited data

How the results depend on the processing

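Of 26 alternative values for chromosome 15, 13 stayed inside the main interval (for the number of bins, within 1.5 times) and 13 did not. The median pair width difference stayed positive at each alternative setting. The other values are shares and counts, which have no sign to change. With wide peaks defined as over 4 kb, shares were 8.78% of knockout and 3.72% of wild-type peaks, and 3.88% of knockout peaks outside the distal segment. Over 6 kb they were 1.86% of knockout and 0.430% of wild-type peaks. Merging peaks within 500 bp gave 6.67% of knockout and 2.83% of wild-type peaks wider than 5 kb, with 3.46% outside the distal segment (interval 2.38 to 4.85%). The other autosomes then had 2.003% in all and 1.99% outside the distal segment (interval 1.81 to 2.18%), so the overlap of intervals outside the distal segment was lost. These shares move because the classes themselves were redefined. The distal segment held 78.7 to 82.2% of wide knockout peaks under these settings, and the part beyond the chromosome's middle held 90.3%, with 72.9% of all knockout peaks. Pairs with centres within 250 bp, which leaves out lopsided widening, differed by 281 bp, against 186 bp on the other autosomes. In bins of 2 Mb all 26 bins lay above 208 bp, a higher number because there were more bins. Gaps of up to 500 bp were closed in 60.7% and gaps of up to 2 kb in 29.6%; when 50% coverage sufficed, 58.7% of gaps of up to 1 kb were. No paired analysis was possible because there was only a single library of either genotype. All width comparisons are limited by the unknown depth.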
